A study of Mus musculus with 4 samples.

Results

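Tmem37, Htr2b, Usp2, AU020206 and Sgk1 are 5 genes outside the extracellular matrix that were picked for higher signals in mouse peritoneal macrophages after overnight culture with transforming growth factor beta 2 (TGFb2). Every probe set whose annotated symbol is one of these names was taken, which gave 7 of the 12422 non-control probe sets on the array, for 5 of 8251 genes with a probe set of their own. The macrophages were raised in female BALB/c mice, 6 to 8 weeks old, with 2 ml of 3% thioglycolate in the peritoneum 4 days before harvest. They then spent the night in medium without serum, with porcine TGFb2 (5 ng, for which the labels give no volume) on 2 arrays and with its PBS vehicle on the other 2. The adherent cells, over 95% positive for the macrophage surface protein F4/80 per the labels, gave the RNA. The labels do not say whether replicates 1 and 2 of a group were separate cultures or animals, so every spread given here may be technical.

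TGF-beta ligands bind a pair of receptor kinases at the cell surface, which phosphorylate Smad proteins that then enter the nucleus and act on gene promoters with other factors. In macrophages the cytokine is known for dampening inflammatory activation, and in connective tissue for matrix production. Tmem37 encodes a membrane protein related to the gamma subunits of voltage-gated calcium channels. Htr2b encodes the serotonin receptor 5-HT2B, which signals through Gq proteins and phospholipase C. Usp2 encodes a peptidase that removes ubiquitin from proteins, and its transcript is known to cycle with the circadian clock in mouse tissues. Sgk1 encodes a serine/threonine kinase close to Akt, named for its induction by serum and glucocorticoids. AU020206 is a long non-coding RNA in the RefSeq annotation, and no role is given to it here.

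Promoters of these genes were searched because the members were all higher with TGFb2 and because Smad proteins and their partner factors have short known binding motifs. Of the 10 promoter windows of the 5 genes, 4 are shown, and every window shown held a match. Each is the 250 bases before an annotated start in RefSeq (build GRCm38.p6), written 5′ to 3′ on the gene's strand, with motif matches in capitals.
Tmem37, chr1:120073781-120074030, minus strand: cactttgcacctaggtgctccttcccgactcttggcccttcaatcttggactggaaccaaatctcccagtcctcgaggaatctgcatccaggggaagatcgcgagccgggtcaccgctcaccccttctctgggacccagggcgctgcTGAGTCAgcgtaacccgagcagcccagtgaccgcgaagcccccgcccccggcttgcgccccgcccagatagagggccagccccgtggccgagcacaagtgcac
Htr2b, chr1:86111981-86112230, minus strand: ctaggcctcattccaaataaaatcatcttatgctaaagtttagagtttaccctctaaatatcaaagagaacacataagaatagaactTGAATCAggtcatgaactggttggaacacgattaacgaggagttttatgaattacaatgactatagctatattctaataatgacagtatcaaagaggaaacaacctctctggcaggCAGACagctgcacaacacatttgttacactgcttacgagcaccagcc
Usp2, chr9:44084670-44084919, plus strand: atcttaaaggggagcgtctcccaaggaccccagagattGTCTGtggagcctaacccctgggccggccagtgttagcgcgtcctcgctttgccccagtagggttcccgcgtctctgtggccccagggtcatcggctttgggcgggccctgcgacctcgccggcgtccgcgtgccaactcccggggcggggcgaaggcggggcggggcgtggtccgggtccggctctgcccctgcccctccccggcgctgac
Sgk1, chr10:21993640-21993889, plus strand: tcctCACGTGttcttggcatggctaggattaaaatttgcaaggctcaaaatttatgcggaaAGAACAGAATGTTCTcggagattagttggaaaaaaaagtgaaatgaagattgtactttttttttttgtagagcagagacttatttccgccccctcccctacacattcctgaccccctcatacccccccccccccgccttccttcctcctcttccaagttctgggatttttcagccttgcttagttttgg
The motifs searched on both strands were the Smad motif CAGAC, the AP-1 pattern TGANTCA and the E-box CACGTG. The N stands for any base, so the AP-1 pattern is wider than the consensus TGA(C/G)TCA. The glucocorticoid response element (AGAACA and TGTTCT with 3 free bases between) was added after the Sgk1 sequence had been read. All but the Smad motif read the same on either strand, and none of the matches shown overlaps another. Of 32817 windows of this length in the same table, 42.2% held the Smad motif, 6.75% the AP-1 pattern and 6.02% the E-box. The glucocorticoid response element was held by 0.00914% (3 windows). The Sgk1 window shown is among these 3 and prompted the search, so nothing is read from that share. Of the 10 windows of the members, 3 held the Smad motif, 2 the AP-1 pattern and 1 the E-box. The window of Tmem37 had an AP-1 match beginning 103 bases before the start and no Smad motif. That of Htr2b had a Smad motif at 47 bases and, at 163 bases, a match to the AP-1 pattern, TGAATCA, that lies outside the consensus. The Usp2 window had a Smad motif at 212 bases. The AU020206 window, which is not printed, had no match to any of the 4 motifs. Sgk1 has 6 annotated starts in the table, and the window shown belongs to the fifth. It held an E-box at 246 bases and, at 189 bases, the match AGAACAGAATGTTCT. In rat, glucocorticoids are known to act on Sgk1 through such an element upstream of the gene. Among the other 5 windows of Sgk1, only that of its second start held any match, with 3 Smad motifs. These matches are letters in a window and say nothing about whether a factor binds there.

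The values below are MAS5 signals, background-corrected intensities on a linear scale that were deposited by the submitters. Differences are TGFb2 minus PBS on the scale log2(signal + 15), and a probe set was tested if its mean signal over the 4 arrays reached 25.1, the 40th percentile. Over the 7453 tested probe sets the TGFb2 arrays had a correlation of 0.967 with each other and the PBS arrays one of 0.978, while a TGFb2 and a PBS array gave 0.953 to 0.966. All 9 macrophage markers on the array lay above the level filter, with Adgre1, the F4/80 gene, at 471 and 748 on the TGFb2 arrays and at 488 and 780 on the PBS arrays. The summed signal of these markers was 17776 to 18222 on the TGFb2 arrays and 15816 to 16716 on the PBS arrays. In limma 0 of the 9 passed, while 6 had an unadjusted p under 0.05, as did 12.2% of all 5635 tested genes, and their median log2 difference was 0.52, against 0.002 over all tested genes. The largest of these differences were those of Fcgr1, an antibody receptor gene, at 1.13 (adjusted p = 0.067) and of Mertk, an efferocytosis receptor gene, at 0.78 (adjusted p = 0.18). The difference of Sgk1 given below, 0.75, was within the range of this list, and the part of such a shift in the member values was not tested. Since the members were picked on this contrast, their differences are given as a description and without a test.

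Tmem37 stood highest of the 5 genes in the ranking of differences. Its brighter probe set had signals of 917 and 827 on TGFb2 arrays 1 and 2, against 147 and 153 on PBS arrays 1 and 2. Both TGFb2 arrays were far above both PBS arrays, and the lower TGFb2 signal was 5.40 times the higher PBS signal. The mean was 872 ± 63.8 with TGFb2 and 150.3 ± 4.10 with PBS (SD, n = 2 arrays each, as in all means below). The log2 difference was 2.42 ± 0.078 (standard error from the 4 arrays), which ranked 6 of all 12422 probe sets. In RNA from a bulk culture, fewer cells of a type and less RNA per cell cannot be told apart. The dimmer Tmem37 probe set had signals of 17.0 and 1.80 with TGFb2 and of 0.70 and 4.60 with PBS. It was below the level filter and its groups overlapped, so it gives no second reading of the gene. The identifier of the brighter probe set ends in _s_at, which on these arrays marks probes that can match more than one transcript.

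Htr2b, the 5-HT2B receptor gene, had close replicates in both groups. Its only probe set had signals of 303 and 318 on the TGFb2 arrays and of 55.6 and 60.9 on the PBS arrays. The groups were separated by a wide gap, with the lower TGFb2 signal 4.97 times the higher PBS signal. The log2 difference was 2.15 ± 0.061 and ranked 9 of 12422. Its pooled replicate SD of 0.061 was smaller than that of all but 8.59% of the tested probe sets, and the median over tested probe sets was 0.18. Only Tmem37 and Htr2b, of the member probe sets, were among the 10 largest differences on this scale, and without a pseudocount they ranked 100 and 123.

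**Figure D1:**
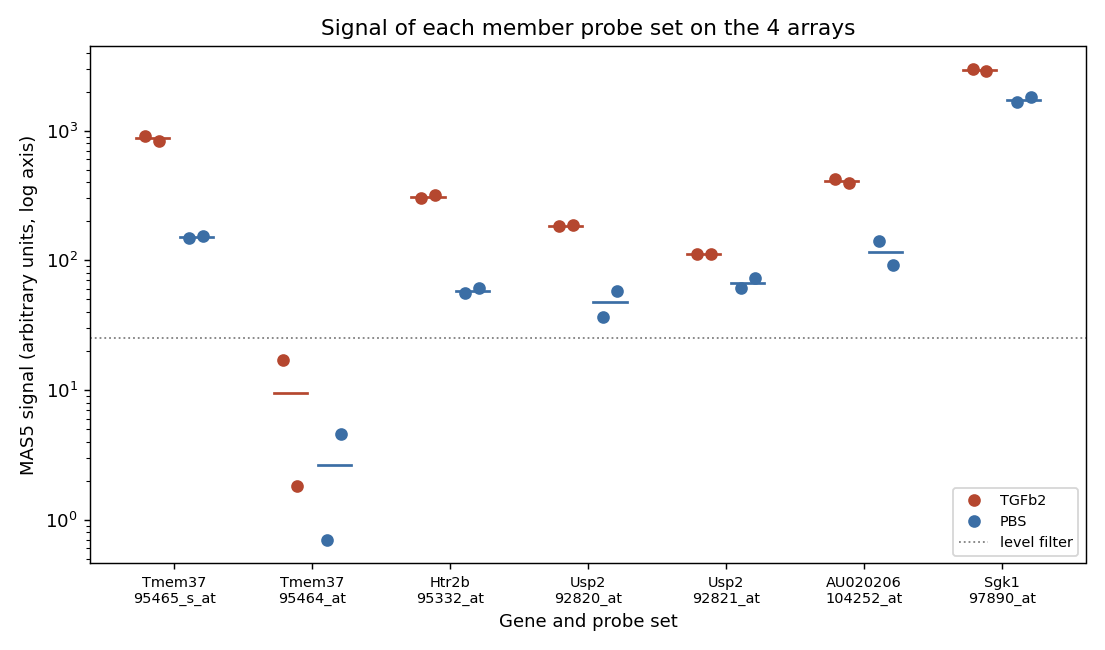
MAS5 signal (log axis) of the 7 member probe sets on the 2 TGFb2 arrays (left, red) and the 2 PBS arrays (right, blue) of each pair, with bars at the group means and a dotted line at the level filter of 25.1. TGFb2 arrays lie above PBS arrays in 6 of the 7 probe sets, as they do in 21.1% of all tested probe sets, and the dim Tmem37 probe set overlaps. The members were picked for these differences.

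Usp2, the ubiquitin-specific peptidase gene, had 2 probe sets that agreed in direction and not in size. The brighter probe set, by mean signal over the 4 arrays, had signals of 183 and 187 on the TGFb2 arrays and of 36.6 and 58.1 on the PBS arrays. On the PBS arrays alone it was the dimmer of the pair, so this label rests on the TGFb2 arrays. Its TGFb2 arrays were nearly equal, while its PBS arrays differed 1.59-fold. The log2 difference was 1.70 ± 0.25 and ranked 30. The dimmer probe set had signals of 112.4 and 112.2 with TGFb2 and of 61.3 and 73.2 with PBS, without overlap. Its log2 difference was 0.63 ± 0.10 and ranked 448. Which Usp2 transcripts each probe set detects is not given in the sources used here.

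AU020206, the long non-coding RNA, had signals of 421 and 396 on the TGFb2 arrays and of 141 and 92.3 on the PBS arrays. The PBS arrays differed 1.52-fold from each other, and the lower TGFb2 signal was still 2.81 times the higher PBS signal. The log2 difference was 1.71 ± 0.27, next to that of the brighter Usp2 probe set in the ranking, at 29. The order of AU020206 and the brighter Usp2 probe set is not settled by these arrays, since each difference lies well within the error of the other. The array annotation and RefSeq give AU020206 under different gene identifiers, and it was matched by symbol.

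Sgk1, the serum- and glucocorticoid-induced kinase gene, was the brightest of the 5 and had the smallest difference among their brightest probe sets. Its signals were 2967 and 2898 on the TGFb2 arrays and 1656 and 1819 on the PBS arrays. The groups did not overlap, and the mean signals stood at 2933 ± 48.7 with TGFb2 and 1738 ± 115 with PBS, a ratio of 1.69. The log2 difference was 0.75 ± 0.069 and ranked 279 of 12422, or 198 of the 7453 tested. Of the tested probe sets 114 were at least 2-fold higher on this scale, and Sgk1 and the dimmer Usp2 probe set were not among them. Its replicates were close, with a pooled SD of 0.069 that only 10.7% of tested probe sets undercut. Among the brightest probe sets, the order of differences was Tmem37, Htr2b, AU020206, Usp2 and Sgk1. In these probe sets Sgk1 lay below the other 4 genes by more than the standard error of any of them. The dimmer Usp2 probe set, at 0.63 ± 0.10, lay below Sgk1.

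Of the 6 member probe sets that passed the level filter, 5 had an adjusted p under 0.05 in limma over all tested probe sets, where 1.17% passed in either direction, 0.805% higher and 0.362% lower. The exception was the dimmer Usp2 probe set. The groups did not overlap, with TGFb2 higher, in 6 of these 6, where 21.1% of the tested probe sets did so and 42.9% were separated in either direction. Since the members were picked for these differences, nothing is read from these counts. The number of member probe sets with an adjusted p under 0.05 was 2 when the variance was fitted with no intensity trend. It was also 2, of 7 then tested, when the level filter was dropped. Fewer of all tested probe sets also passed under both settings, as given at the end. The number stayed at 5 under each change of pseudocount or normalization, with the filter at the 60th percentile and with the replicate block. Without TGFb2 replicate 1 and without TGFb2 replicate 2 the number was 2, and without PBS replicate 1 and without PBS replicate 2 it was 4.

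**Figure D2:**
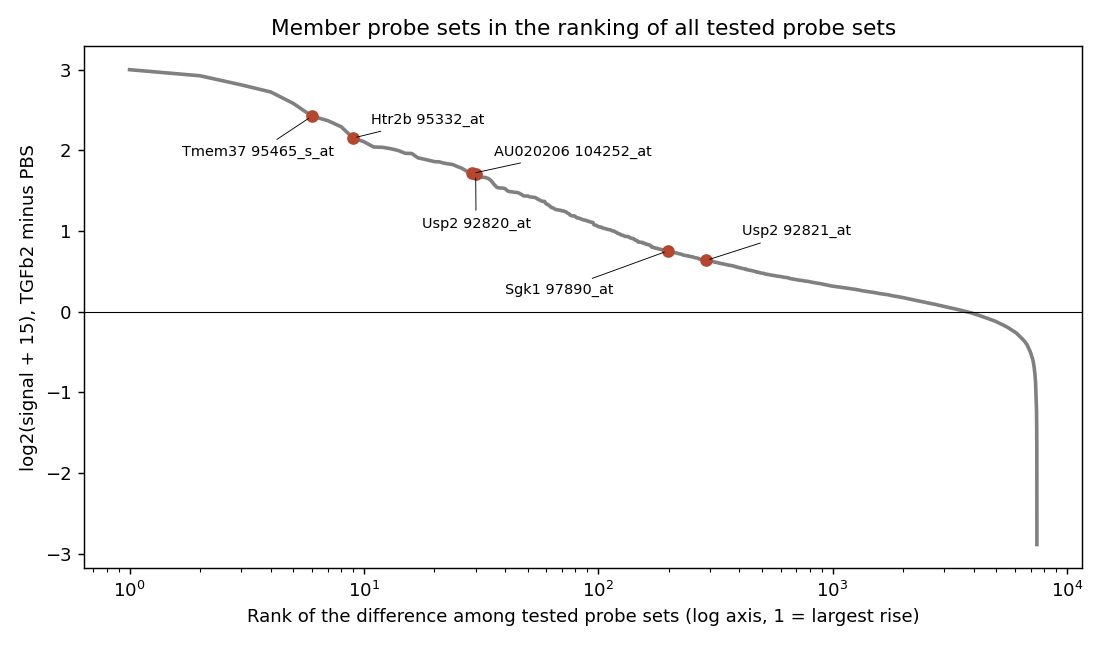
Log2 difference, TGFb2 minus PBS, of all 7453 tested probe sets (grey) against their rank (log axis, 1 is the largest rise), with the 6 tested member probe sets in red. Tmem37 and Htr2b lie at ranks 6 and 9, AU020206 and the brighter Usp2 probe set at 29 and 30, and Sgk1 and the dimmer Usp2 probe set at 198 and 289.

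The probe sets next to the members in the ranking of tested differences included matrix genes beside others. Tmem37 stood between Eln, the elastic fibre protein, at a log2 difference of 2.58 and Scx, a tendon transcription factor, at 2.37. Htr2b stood between Timp1, a metalloproteinase inhibitor, at 2.29 and Tgfbi, a secreted matrix protein, at 2.11. AU020206 and the brighter Usp2 probe set stood between the collagen chain gene Col5a1 at 1.72 and the complement chain gene C1qb at 1.67. Without a pseudocount Col5a1 differed by 3.10 and C1qb by 1.89, against 1.84 for AU020206 and 2.00 for the brighter Usp2 probe set. The neighbours of Sgk1 were Snrpb2, a splicing factor gene, and Cd70, a TNF family ligand gene, both at 0.75. Those 2 had less even replicates than Sgk1, with Snrpb2 at signals of 175 and 88.3 on the TGFb2 arrays and of 81.2 and 56.9 on the PBS arrays.

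Likeness of pattern was measured as the Euclidean distance between log2 signals over the 4 arrays, each centred on its own mean, against 6716 tested probe sets with 1 gene symbol. With 4 arrays this distance reflects little more than the size of the difference and the spread within groups. The closest to Tmem37 were Eln at a distance of 0.321, Col1a1, a chain of collagen I, at 0.322 and Lox, an enzyme that cross-links collagen and elastin, at 0.449. The closest to Htr2b were Tgfbi at 0.263, Lox at 0.283 and Sphk1, which makes sphingosine 1-phosphate, at 0.328. The distance between Tmem37 and Htr2b themselves was 0.312. The closest to the brighter Usp2 probe set were Apoc2, a lipoprotein component, at 0.151, Sphk1 at 0.205 and the calgranulin gene S100a8 at 0.240. The closest to AU020206 were Col1a2, the other chain of collagen I, at 0.152, Spsb1, a substrate adaptor of ubiquitin ligases, at 0.170 and Col5a1 at 0.192. Lox, Sphk1 and Col5a1 were dim on the PBS arrays, so their distances rest in part on the pseudocount. Their PBS signals were 4.10 and 7.40, 4.00 and 9.80, and 12.3 and 4.00 in this order. Without a pseudocount they differed by 3.61, 3.39 and 3.10, against 2.53 for Tmem37, 2.41 for Htr2b, 2.00 for Usp2 and 1.84 for AU020206. Tgfbi, Apoc2 and Col1a2, the closest to Htr2b, Usp2 and AU020206, then differed by 2.46, 2.10 and 2.01. The closest to Sgk1 were the prion protein gene Prnp at 0.050, the efferocytosis receptor gene Mertk at 0.109 and the paraoxonase gene Pon2 at 0.115. Prnp had signals of 763 and 761 on the TGFb2 arrays and of 430 and 487 on the PBS arrays, a log2 difference of 0.72 (limma, adjusted p = 0.088).

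Several of these genes mark other cells of the peritoneum, so the marker lists of such cells were read beside the members. Of 8 neutrophil markers on the array, 3 were tested and 1 rose, S100a8, at 551 and 679 with TGFb2 and at 129 and 211 with PBS (limma, adjusted p = 0.024, range over the alternatives 2.3e-05 to 0.11). That call was lost without TGFb2 replicate 1 (0.097) and without TGFb2 replicate 2 (0.094). The summed neutrophil signal was 756 to 840 on the TGFb2 arrays and 293 to 355 on the PBS arrays, and without S100a8 the other 7 markers summed to 161 to 205 with TGFb2 and 144 to 164 with PBS, which overlap. The other tested markers differed by 0.30 for Camp (adjusted p = 0.62) and by 0.056 for Elane (adjusted p = 0.97), while Ly6g, Mpo, Ngp, Cxcr2 and S100a9 lay below the level filter. Of 12 fibroblast and mesothelial markers, 8 were tested, of which 1 rose (Col1a1, adjusted p = 0.022) and 1 fell (Dcn, adjusted p = 0.027) in limma by their brightest probe sets. This is 25% past the threshold, against 1.19% of all tested genes, and 3 had an unadjusted p under 0.05 (12.2% over all tested genes). By sign, 4 of the 8 were higher and 4 lower. The summed signal of the 12 was 1527 to 1746 with TGFb2 and 1644 to 2371 with PBS. Dcn held a large part of this sum, at 319 and 257 with TGFb2 and at 1130.5 and 747 with PBS. The sum therefore does not show how the other markers moved. The brightest probe sets of Col1a1 and Col1a2 differed by 1.29 and 0.16, and the dimmer ones named above for their likeness to Tmem37 and AU020206 by 2.72 (adjusted p = 0.0018) and 1.86 (adjusted p = 0.018). Of 9 mast cell markers, 3 were tested and 0 passed in limma (1 at an unadjusted p under 0.05, against 12.2% of all tested genes). Their sums were 405 to 564 on the TGFb2 arrays and 412 to 443 on the PBS arrays. Cpa3 differed by 0.76 and Tpsb2 by 0.43, with 0.75 in a second Tpsb2 probe set, and Cma1 by -0.19. The median of the tested markers was 0.43, against 0.002 over all tested genes. Kit, Mcpt4, Hdc, Fcer1a, Ms4a2 and Tpsab1 lay below the filter. All 5 B cell markers were tested, and their summed signal was 376 to 432 with TGFb2 and 335 to 362 with PBS. Of 5 dendritic cell markers 3 were tested, with sums of 1202 to 1349 with TGFb2 and 1205 to 1220 with PBS. In both lists 0 passed in limma and 0 had an unadjusted p under 0.05 (12.2% over all tested genes). No platelet, eosinophil or T and NK cell marker on the array passed the level filter. The part of these cells in the member values was not tested.

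Among the receptors and enzymes of serotonin, 1 gene passed the test. Of 12 tested genes on the list, chosen like the other lists below with earlier results of these arrays known, 0 rose, 1 fell and 11 did not pass in limma. Their median log2 difference was -0.061, against 0.002 over all 5635 tested genes, of which 1.19% passed. The gene that fell was Maoa, the monoamine oxidase that degrades serotonin, with signals of 450.2 and 420 on the TGFb2 arrays and of 878 and 784 on the PBS arrays. Its groups did not overlap, and the log2 difference was -0.91 ± 0.15 (limma SE, adjusted p = 0.045). The call of Maoa was lost without any single array, at an adjusted p of 0.12 without TGFb2 replicate 2, 0.15 without TGFb2 replicate 1, 0.12 without PBS replicate 2 and 0.20 without PBS replicate 1, and its adjusted p ran from 0.0031 to 0.20 across the alternatives. Of 10 other serotonin receptor genes on the array, 7 were tested, and their differences ran from -0.35 for Htr1b to 0.65 for Htr3a, with 0 past the threshold in limma. Htr2c, a receptor of the same subfamily as Htr2b, had signals of 2.60 and 0.30 with TGFb2 and the same values with PBS, below the filter.

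Of 11 tested genes of Gq signalling, the pathway that 5-HT2B uses, 0 passed in limma, while 3 had an unadjusted p under 0.05 (12.2% over all tested genes), and the median difference was -0.025. Gna15, a Gq family subunit of blood cells, had signals of 109 and 120 with TGFb2 and of 51.1 and 68.6 with PBS (adjusted p = 0.16). Rgs19, a regulator of G protein signalling, had signals of 301 and 328 with TGFb2 and of 518 and 592 with PBS in its brightest probe set (limma, adjusted p = 0.078). A second Rgs19 probe set differed by 0.015 (adjusted p = 0.99). Of 12 voltage-gated calcium channel subunit genes on the array, 8 lay below the filter and 0 of the 4 tested passed (0 at an unadjusted p under 0.05). The differences of the 4 ran from -0.19 for Cacna1c, a pore subunit, to 0.045, with -0.14 for Cacna1h. The gamma subunit genes on the list, to which Tmem37 is related, were Cacng1 and Cacng2. Both lay below the filter, so no gamma subunit was tested.

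The other deubiquitinases of the Usp family did not pass the test. Of 21 tested deubiquitinases, 0 passed in limma and 2 had an unadjusted p under 0.05 (12.2% over all tested genes), with a median difference of -0.0065 and a range from -0.79 to 0.29. The brighter Usp2 probe set, at 1.70, lay outside that range, but Usp2 was picked for its size. Usp18, which removes the ubiquitin-like protein ISG15, had signals of 54.9 and 83.7 with TGFb2 and of 114 and 143 with PBS (adjusted p = 0.22). Usp14, a proteasome-bound member, had signals of 160.0 and 161 with TGFb2 and of 281 and 254 with PBS (adjusted p = 0.14). Of 15 tested circadian clock genes, 0 passed in limma and 1 had an unadjusted p under 0.05 (against the same 12.2%), with a median difference of -0.061. Per1, a repressor of the clock, had signals of 33.6 and 20.9 with TGFb2 and of 48.3 and 53.6 with PBS (adjusted p = 0.39). Rora, a nuclear receptor of the clock, differed by -0.46 (adjusted p = 0.60).

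Kinases, activators and substrates around Sgk1 showed no change past the threshold. Of 16 tested genes of this list, 0 passed in limma and 0 had an unadjusted p under 0.05, with a median difference of -0.013. Ndrg1, a known substrate of the kinase, had signals of 740 and 405 with TGFb2 and of 908 and 568 with PBS, so that replicate 1 was higher than replicate 2 in both groups. Pdpk1, which phosphorylates and activates Sgk1, differed by -0.27 (adjusted p = 0.63). Of 17 tested glucocorticoid-responsive genes, 0 passed in their brightest probe sets in limma, while 5 had an unadjusted p under 0.05 (12.2% over all tested genes), and the median difference was -0.0078. Dusp1, a phosphatase of MAP kinases, had signals of 355 and 268 with TGFb2 and of 778 and 553 with PBS, a difference of -1.05 (adjusted p = 0.080). Ddit4, a stress-induced inhibitor of mTOR, had signals of 71.3 and 21.0 with TGFb2 and of 4.80 and 3.60 with PBS (adjusted p = 0.22). Annexin A1 (Anxa1), singled out after its values were seen, differed by -0.63 in its brightest probe set (adjusted p = 0.057). Its 2 dimmer tested probe sets differed by -0.96 (limma, adjusted p = 0.044, range 0.00062 to 0.17) and by -1.09 (limma, adjusted p = 0.032, range 0.00048 to 0.12). Both calls were lost without any single array, the one at -0.96 with 0.094 without TGFb2 replicate 2, 0.063 without TGFb2 replicate 1, 0.12 without PBS replicate 2 and 0.10 without PBS replicate 1. The one at -1.09 had 0.094 without TGFb2 replicate 2, 0.097 without TGFb2 replicate 1, 0.063 without PBS replicate 2 and 0.12 without PBS replicate 1.

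**Figure D3:**
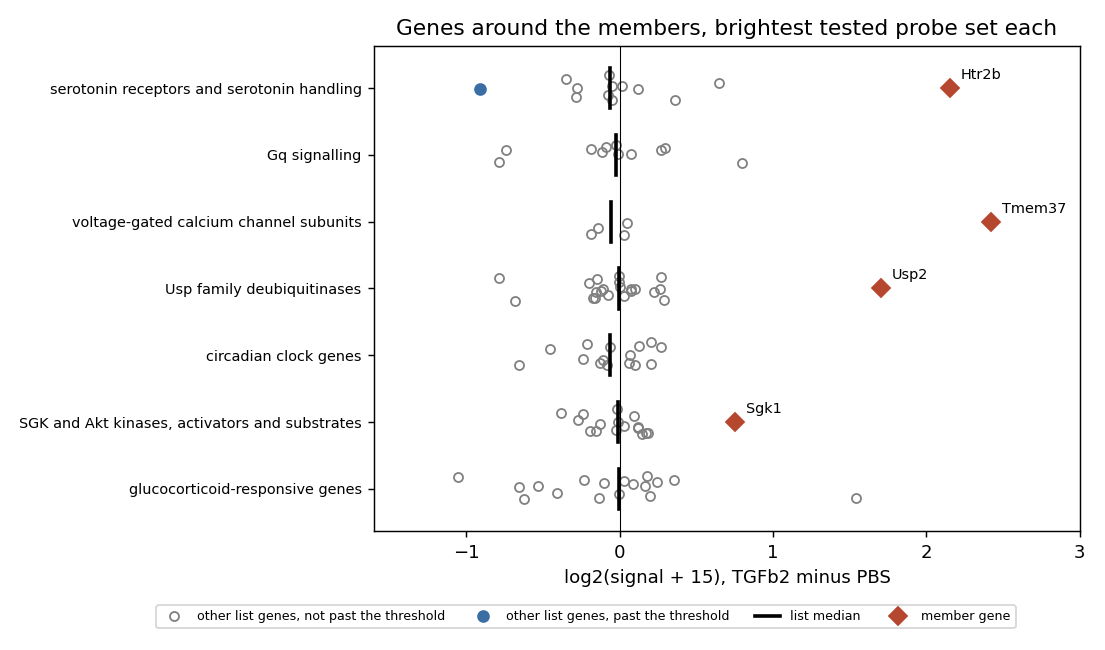
Log2 difference, TGFb2 minus PBS, of the tested genes on 7 lists around the members (circles, filled where the adjusted p in limma was under 0.05), with list medians as black bars and the related member as a red diamond. The medians lie between -0.061 and -0.0065, and the only filled circle is Maoa at -0.91.

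The genes beside the members on their chromosomes were looked up by their order in the RefSeq table, taking any overlapping protein-coding gene and the nearest 2 on each side, a choice made after the member values were seen. Htr2b lies in the interval of Psmd1, a subunit of the proteasome's regulatory particle, and Psmd1 also rose. Its signals were 1190 and 1206 on the TGFb2 arrays and 681 and 644 on the PBS arrays. The groups did not overlap, and the log2 difference was 0.84 (limma, adjusted p = 0.044), well below the 2.15 of Htr2b. The call of Psmd1 was lost without any single array, at 0.12 without TGFb2 replicate 2, 0.15 without TGFb2 replicate 1, 0.18 without PBS replicate 2 and 0.13 without PBS replicate 1, and its adjusted p ran from 0.0036 to 0.18 across the alternatives. Whether transcripts of the 2 genes reach each other's probes was not tested. The Tmem37 neighbour Dbi, an acyl-CoA binding protein gene, differed by 0.40 (adjusted p = 0.39), and the Sgk1 neighbour Hbs1l, a translation rescue factor gene, by -0.24 (adjusted p = 0.68). The Usp2 neighbour Thy1 lay below the filter, at signals of 4.00 and 2.50 with TGFb2 and of 4.50 and 2.70 with PBS.

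Quantile and cyclic loess normalization moved none of the 5 brightest probe sets by more than its replicate SD. Htr2b ran from 1.65 with 4 times the pseudocount to 2.41 without one, and the brighter Usp2 probe set from 1.20 to 2.00. Sgk1, the brightest, ran from 0.68 to 0.82, with its ends set by leaving out PBS replicate 1 and PBS replicate 2. Without a pseudocount the ranks were 100 for Tmem37, 123 for Htr2b, 227 for the brighter Usp2 probe set, 290 for AU020206 and 1579 for Sgk1. With 4 times the pseudocount they were 3, 8, 27, 15 and 95 in the same order of genes.

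**Figure D4:**
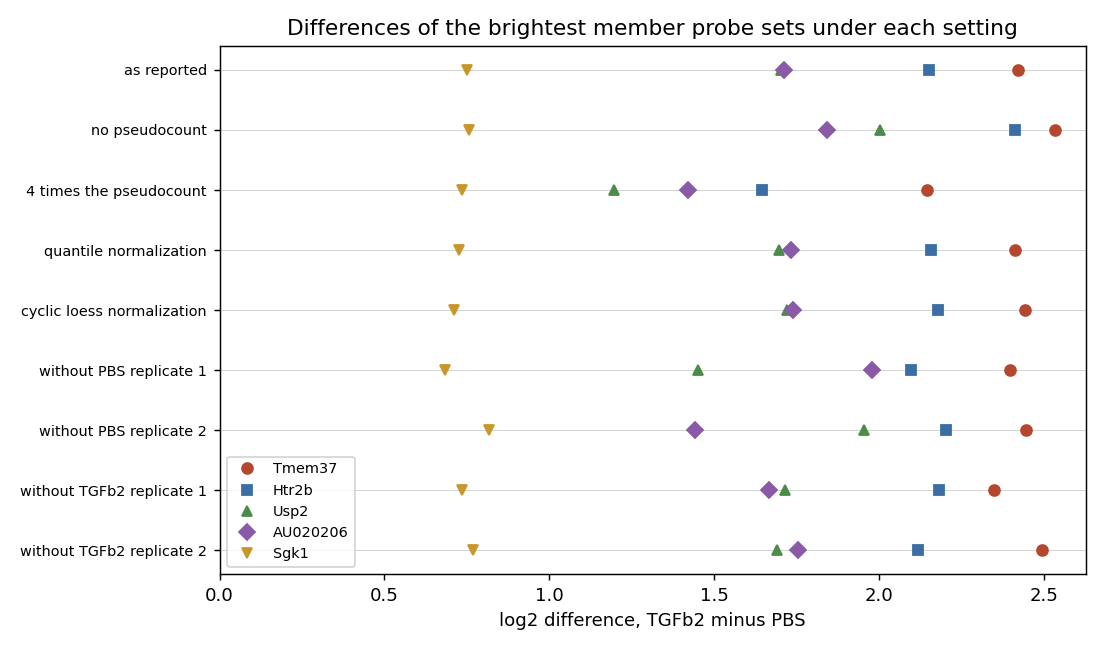
Log2 difference, TGFb2 minus PBS, of the brightest probe set of each member gene as reported and under 8 other settings. All 5 genes stay above 0 in every row, with Htr2b between 1.65 and 2.41 and Sgk1 between 0.68 and 0.82.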

How the data were processed

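Signals of 12488 probe sets on 4 Affymetrix arrays (2 TGFb2, 2 PBS) were used as deposited intensities. The submitters' processing notes name MAS5, without a version, as the source of these signals. No detection calls, scan dates or batches were used here. The 2% trimmed means of the deposited intensities were equal on the 4 arrays (150.1), so no scaling was applied. The number of arrays limits the precision. Control probe sets (66) were left out, and 10833 of the others carried 1 gene symbol. Symbols were checked through gene IDs in the GRCm38.p6 table, where 10817 were found.

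Signals were taken to log2(signal + 15) and 7453 probe sets at or above the 40th percentile of mean signal entered a limma fit (version 3.58.1, R 4.3.3; eBayes with an intensity trend, two-sided, Benjamini-Hochberg over all tested probe sets, threshold 0.05). List genes were represented by their brightest tested probe set.

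The members and gene lists were chosen with earlier results of these data known. Named genes were the members, up to 2 genes a direction from each list, the 3 most alike and the rank neighbours. Alternatives covered the pseudocount, normalization, filter, variance model, replicate block and each array in turn. Motifs were searched with Python 3.11.15. Any 2 arrays had equal signals at only 52 to 98 probe sets, so none is a copy of another. Each array was counted as a sample, although the replicates may be technical.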

Additional observations from a re-analysis of the deposited data

How the results depend on the processing

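The number of probe sets past the threshold, 87 with 60 higher, was 56 with 37 higher without a pseudocount, 6 with 5 higher without the level filter, 13 with 12 higher without the intensity trend, and 11 to 50 with 7 to 37 higher when each array was left out, where the spread of the remaining single array is taken from the other group. With the replicate block it was 324, of which 182 were higher. The labels do not say that replicate numbers pair arrays, so the block is not the reported fit. Deviations of the replicate 1 arrays from their group means correlated at 0.14. With 2 arrays in a group those of replicate 2 are the same with the sign reversed, so this value does not decide whether arrays are paired. The 1 companion list gene past the threshold, of 95 tested, became 0 in limma without a pseudocount, after quantile normalization, without the filter, without the trend and without each array (0 to 0), where 8 to 13 had an unadjusted p under 0.05. It became 2 with cyclic loess, 2 with the filter at the 60th percentile, and 8 with the replicate block.

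Among the members, the log2 differences without a pseudocount were 2.53 for Tmem37, 2.41 for Htr2b and 2.00 for Usp2. With 4 times the pseudocount they were 2.15, 1.65 and 1.20, and 1.42 for AU020206. When each array was left out they ran from 2.35 to 2.50 for Tmem37, 2.10 to 2.20 for Htr2b, 1.45 to 1.95 for Usp2, 1.44 to 1.98 for AU020206 and 0.68 to 0.82 for Sgk1. No setting turned the direction of these 5. The dim Tmem37 probe set ran from -0.062 without TGFb2 replicate 1 to 1.62 without a pseudocount, with 0.87 without TGFb2 replicate 2. Among other genes, Cacna1c ran from -0.46 without PBS replicate 2 to 0.089 without PBS replicate 1, with 0.034 without TGFb2 replicate 2. Cacna1h had -0.79 when TGFb2 replicate 1 was left out and 0.50 when TGFb2 replicate 2 was, and Ndrg1 had -0.80 and 0.041 in the same order. The second Rgs19 probe set ran from -0.049 without PBS replicate 1 to 0.079 without PBS replicate 2, with -0.0053 without TGFb2 replicate 1. The cause of these turns was not tested. Of 16 other named probe sets past the threshold, 2 passed under every alternative.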
